A study of Mus musculus with 6 samples.

Results

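Osteoclasts are the multinucleated cells that dissolve bone, and they form when precursors of the macrophage lineage fuse with each other. The ligand RANKL binds the receptor RANK on the precursor, and this signal, together with a costimulatory signal from immunoglobulin-like receptors such as OSCAR, switches on the transcription factor NFATc1. NFATc1, with MITF and PU.1, then activates the genes for fusion proteins, for the proton pump that acidifies the bone surface and for the enzymes that digest mineral and collagen. Several of these genes are also active in macrophages, in dendritic cells grown with GM-CSF and in the giant cells that macrophages form at foreign bodies.

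The 10 genes described here were taken by symbol from the authors' deposited comparison of Pim1 knockout with wild-type cells, and all 10 had a row among its 24312 rows. They comprise Tnfrsf11a, Oscar, Calcr, Nfatc1, Mitf, Dcstamp, Ocstamp, Acp5, Ctsk and Atp6v0d2. They were chosen by function with the pooled values of this same comparison already known, so their differences between the genotypes are given as a description and not as a test. The authors tested 8 of them. Oscar and Calcr were too low to be tested.

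The cells were myeloid-derived suppressor cells grown from bone marrow, a term for immature myeloid cells, granulocytic or monocytic, with the ability to dampen T cell responses. The Pim1 KO group came from femur marrow of Pim1-/- mice with a C57BL/6 strain label, and the WT group from femur marrow of C57BL/6 mice. PIM1, the product of the targeted gene, is a cytokine-induced protein kinase. Both genotypes received 40 ng/mL GM-CSF together with 40 ng/mL IL-6 through 7 days of culture, and the cells were labelled CD11b+ Gr1+; the protocol names no RANKL. Each genotype had 3 libraries, called biological replicates, made by a Smart-seq2 protocol for bulk RNA. The age and sex of the mice were not given in the sources used here, nor was the design of the Pim1 allele.

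The table holds 1 pooled value per gene and genotype, read as FPKM (fragments scaled to transcript length and library size). The spread between libraries and the depth of each are therefore unknown. Positions are those of the table, whose genome build is not settled. Each log2 fold change below is Pim1 KO over WT, and its error is that value over the test statistic of the authors' deposited table. A gene is said to have passed when its adjusted p in that table was under 0.05. Of 11079 tested genes 13.5% passed, 6.73% as lower and 6.79% as higher in Pim1 KO, and the median log2 fold change of all tested genes was 0.01. Pim1 itself was at 22.7 FPKM in Pim1 KO and 90.2 FPKM in WT, so that transcript counted to the gene remained in Pim1 KO at 25.1% of the WT value. The Y-linked gene Eif2s3y was at 0.0191 FPKM in Pim1 KO and 6.79 FPKM in WT, while Xist, transcribed from the inactive X chromosome of females, was at 7.21 FPKM in Pim1 KO and 5.21 FPKM in WT. The WT pool thus held transcripts of both kinds and the Pim1 KO pool almost no Y-linked transcript, so the effect of genotype and that of unequal sex between the pools cannot be told apart here.

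Markers bear on what these cells were. Itgam, which encodes CD11b, was at 151.8 FPKM in Pim1 KO and 138.8 FPKM in WT, and the macrophage gene C1qb was at 1756 FPKM in Pim1 KO and 1515 FPKM in WT. Ly6c2, a gene of the Gr1 antigen, was at 997.1 FPKM in Pim1 KO and 392.4 FPKM in WT. Genes that mark osteoclasts differed widely in level. The acid phosphatase gene Acp5 was at 54.9 FPKM in Pim1 KO and 153 FPKM in WT. The proton pump subunit gene Atp6v0d2 was at 100.2 FPKM in Pim1 KO and 190.3 FPKM in WT. Others, picked in part after their values were seen, were close to absent. The calcitonin receptor gene Calcr and the lectin gene Siglec15 were listed at 0 in both genotypes, and the integrin gene Itgb3 was at 0.199 FPKM in Pim1 KO and 0.129 FPKM in WT. The RANKL gene, Tnfsf11, was listed at 0 in both. Of the 10 genes, 8 were thus expressed at a level the authors tested, in cells in which Calcr, Siglec15 and Itgb3 were at or near 0.

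Of the 8 tested members, 5 had passed, each as lower in Pim1 KO (Acp5, Dcstamp, Ocstamp, Atp6v0d2 and Mitf), and 3 had not (Ctsk, Nfatc1 and Tnfrsf11a). Since the genes were picked with this contrast in view, nothing is read from that count against the background of 6.73%. The median log2 fold change of the 8 was -0.74. The members that had passed were the genes of the fusion proteins, the acid phosphatase, the proton pump subunit and the factor MITF. Of the 3 tested members that had not passed, the protease gene Ctsk had a lower value in Pim1 KO than in WT, and the receptor gene Tnfrsf11a and the regulator gene Nfatc1 had higher ones.

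**Figure D1:**
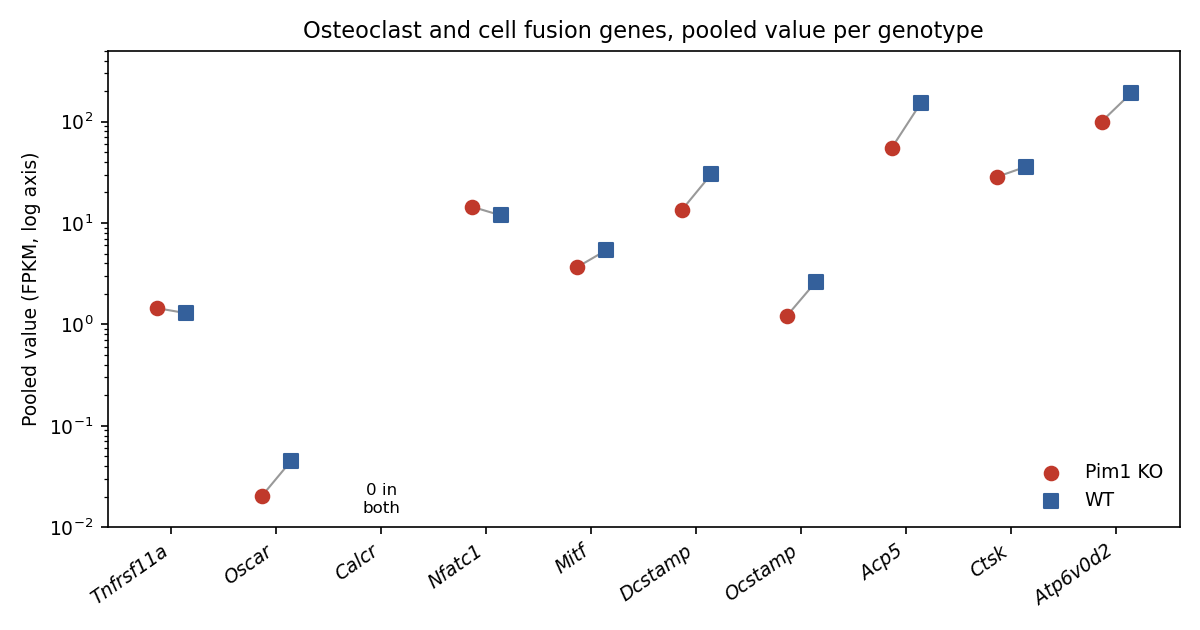
Pooled value of each of the 10 genes on a logarithmic FPKM axis, with Pim1 KO as circles on the left and WT as squares on the right of each gene, and no error because libraries were pooled. The WT marker is the higher one for Acp5 (54.9 in Pim1 KO, 153 in WT), Atp6v0d2, Dcstamp, Ocstamp, Mitf, Ctsk and Oscar, the order is turned for Nfatc1 and Tnfrsf11a, and Calcr is at 0 in both.

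The levels spread widely. In WT cells Atp6v0d2 was the most abundant member, followed by Acp5, Ctsk, Dcstamp, Nfatc1, Mitf, Ocstamp, Tnfrsf11a, Oscar and Calcr. In Pim1 KO cells the same order held except that Nfatc1 stood above Dcstamp and Tnfrsf11a above Ocstamp. In mean level of both genotypes, Atp6v0d2 was above 93.6% of tested genes and Acp5 above 91.5%, whereas Mitf was above 37.6% and Tnfrsf11a above 14.3%. Whether neighbours in these orders differ beyond the spread of libraries cannot be seen from pooled values.

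Among the receptors, Tnfrsf11a encodes RANK, which receives the RANKL signal. It was at 1.45 FPKM in Pim1 KO and 1.29 FPKM in WT, with log2 fold change 0.17 and error 0.36. Oscar encodes a collagen-binding receptor that signals through the Fc receptor gamma chain and costimulates RANK. It was at 0.0201 FPKM in Pim1 KO and 0.0449 FPKM in WT, levels from which no fold is drawn. Calcr, the receptor through which calcitonin halts resorption, was listed at 0 in both genotypes. Transcript of RANK was thus low in both genotypes, and that of the other 2 receptor genes was near or at 0.

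Of 19 tested genes of RANK ligand, decoy receptor and proximal signalling, 1 had passed, as lower, beside 13.5% of all tested genes passing either way, with a median log2 fold change of -0.04. That gene was Relb, a subunit of the alternative NF-kB pathway, at 16.1 FPKM in Pim1 KO and 22.05 FPKM in WT. Of 19 tested genes of ITAM costimulation and calcium signalling, the route from OSCAR-like receptors to calcineurin and NFAT, 1 had passed as lower and 1 as higher (median 0.01). Sirpb1a, a receptor that pairs with the adaptor DAP12, was at 21.1 FPKM in Pim1 KO and 37.2 FPKM in WT, and its near-identical relatives make that value uncertain. Nfatc2 was at 3.20 FPKM in Pim1 KO and 1.76 FPKM in WT.

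Of the transcription factors, Nfatc1 encodes the master regulator of osteoclast formation, which calcineurin activates. It was at 14.5 FPKM in Pim1 KO and 11.9 FPKM in WT, with log2 fold change 0.29 and error 0.25, and it had not passed. It lies on chromosome 18 at 80802944 to 80909810 in the coordinates of the table. Nfatc1 was the largest of the 3 NFAT genes compared, Nfatc1, Nfatc2 and Nfatc3, in both genotypes. It held 62.0% of their summed FPKM in Pim1 KO and 62.9% in WT. Acp5, Dcstamp and Atp6v0d2, which are known targets of NFATc1, had lower values in Pim1 KO and had passed. Ctsk, also among the enzyme genes that NFATc1 activates, was at 28.4 FPKM in Pim1 KO and 35.9 FPKM in WT and had not passed. The part of NFATc1 in those values was not tested, and transcript level does not measure the activity of the protein.

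Mitf encodes a basic helix-loop-helix factor that acts with its relative TFE3 on osteoclast promoters. It was at 3.64 FPKM in Pim1 KO and 5.37 FPKM in WT, with log2 fold change -0.56 and error 0.28. Mitf was the smallest of the 4 genes of its family in both genotypes, with 3.01% of their summed FPKM in Pim1 KO and 3.87% in WT. Tfec, the member restricted to the macrophage lineage, held most of the family's signal, with 74.4 FPKM in Pim1 KO and 93.4 FPKM in WT, and it had not passed. Tfe3 was at 33.1 FPKM in Pim1 KO and 30.1 FPKM in WT, and Tfeb was at 9.86 FPKM in Pim1 KO and 9.89 FPKM in WT. Of 12 lysosomal and lineage genes listed as targets of this family, 1 had passed, as higher, beside 6.79% of all tested genes (median -0.01). It was Sgsh, a lysosomal sulfatase, at 3.38 FPKM in Pim1 KO and 2.37 FPKM in WT.

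**Figure D2:**
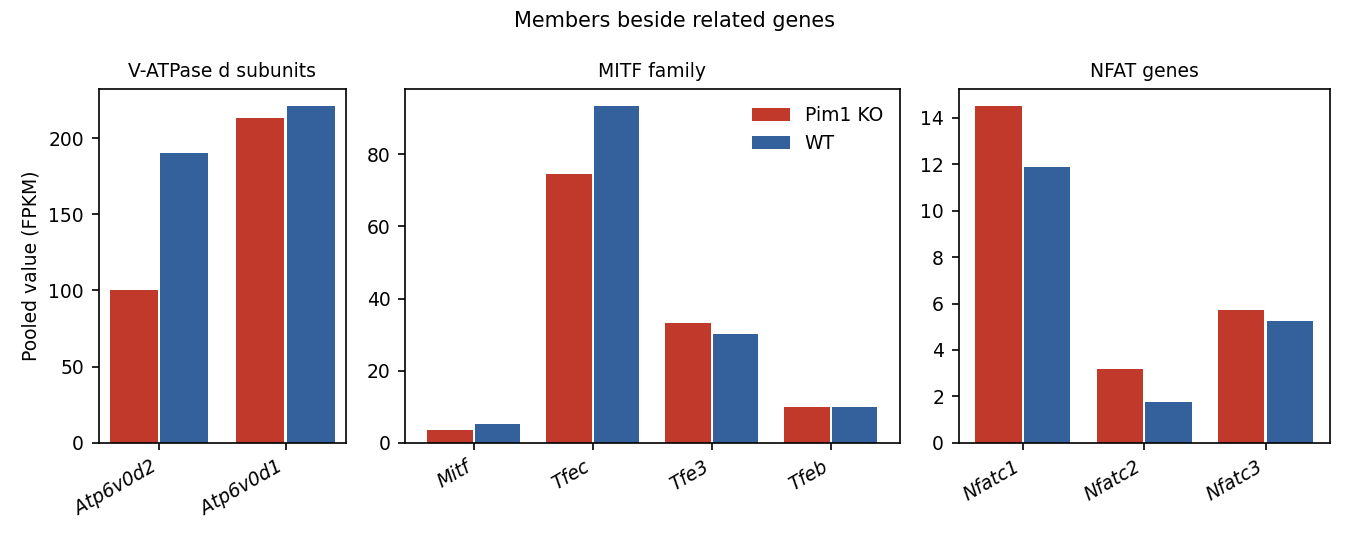
Pooled FPKM of 3 members and of genes related to them, with Pim1 KO bars left of WT bars, a separate linear axis from 0 in each panel, and no error because libraries were pooled. Atp6v0d2 is 100.2 in Pim1 KO and 190.3 in WT beside Atp6v0d1 at 213.2 and 221.1. Mitf is the lowest bar pair of its family, and Nfatc1 is the highest of the NFAT genes shown.

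Of 16 tested transcription factors that promote osteoclast formation, 5 had passed, each as lower, beside 6.73% of all tested genes. The median log2 fold change of the 16 was -0.31. Pparg, a nuclear receptor of lipid metabolism, was at 7.34 FPKM in Pim1 KO and 15.6 FPKM in WT (log2 fold change -1.09, error 0.30). Fos, the AP-1 subunit without which osteoclasts do not form in mice, was at 61.9 FPKM in Pim1 KO and 123.5 FPKM in WT. Prdm1, which encodes the repressor Blimp1, was at 2.59 FPKM in Pim1 KO and 4.65 FPKM in WT. Those that had passed also included Junb and Jund, further AP-1 subunits, whereas Spi1, which encodes PU.1, was at 382.4 FPKM in Pim1 KO and 359.2 FPKM in WT and had not passed. Of 17 tested inhibitors of osteoclast formation, 1 had passed, as higher, beside 6.79% of all tested genes (median of the 17 -0.06). This was Id1, an inhibitor of helix-loop-helix factors, at 61.4 FPKM in Pim1 KO and 24.1 FPKM in WT.

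Dcstamp and Ocstamp encode multipass membrane proteins that precursors need in order to fuse. Dcstamp was at 13.3 FPKM in Pim1 KO and 30.1 FPKM in WT, with log2 fold change -1.17 and error 0.27. Ocstamp was at 1.20 FPKM in Pim1 KO and 2.64 FPKM in WT, with log2 fold change -1.13 and the widest error of the tested members, 0.45. Both were lower in Pim1 KO by a like factor, so that Dcstamp stood 11.1 times above Ocstamp in Pim1 KO and 11.4 times above it in WT on the FPKM scale. In the coordinates of the table Dcstamp lies on chromosome 15 at 39577476 to 39592484 and Ocstamp on chromosome 2 at 165220950 to 165225894.

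Other genes of macrophage and osteoclast fusion were mixed. Of 16 tested, 4 had passed as lower and 1 as higher, beside 6.73% and 6.79% of all tested genes. The median log2 fold change of the 16 was -0.09. The tetraspanin Tspan13 was at 1.08 FPKM in Pim1 KO and 2.96 FPKM in WT, and Cd9, a tetraspanin abundant in these cells, was at 766.8 FPKM in Pim1 KO and 1129 FPKM in WT. Cd36, a scavenger receptor, was at 29.3 FPKM in Pim1 KO and 39.0 FPKM in WT. The metalloprotease gene Adam8 was at 72.7 FPKM in Pim1 KO and 48.2 FPKM in WT. The adhesion receptor gene Cd44, and Cd47 with its receptor gene Sirpa, were among the 11 that had not passed.

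Acp5 encodes tartrate-resistant acid phosphatase, the classical stain for osteoclasts. It lies on chromosome 9 at 21931171 to 21940190, and it was at 54.9 FPKM in Pim1 KO and 153 FPKM in WT. The log2 fold change of -1.48 (error 0.24) was the largest among the tested members, and the Pim1 KO value was 35.7% of the WT value. Ctsk encodes cathepsin K, the collagen-degrading protease of osteoclasts. It was at 28.4 FPKM in Pim1 KO and 35.9 FPKM in WT, with log2 fold change -0.34 and error 0.25, and it had not passed. The 2 enzyme genes thus differed in size of change, and Acp5 stood 1.93 times above Ctsk in Pim1 KO and 4.27 times above it in WT on the FPKM scale; that difference between the genes was not tested.

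Promoter windows from RefSeq (build GRCm38.p6), each with 250 bases before and 50 bases after an annotated start, were at hand for 6 of the members. Acp5 is shown with its 3 annotated starts because it had the largest difference, and Ctsk because its difference was smaller and had not passed. Oscar is shown because its window held the most motif matches although its transcript was near 0. All are written 5′ to 3′ on the gene's strand, with motif matches on either strand in capitals. Acp5 windows 1, 2 and 3 lie on the minus strand at chr9:22135697-22135996, chr9:22131816-22132115 and chr9:22130549-22130848, the Ctsk window on the plus strand at chr3:95498960-95499259 and the Oscar window on the minus strand at chr7:3616108-3616407.
Acp5 window 1: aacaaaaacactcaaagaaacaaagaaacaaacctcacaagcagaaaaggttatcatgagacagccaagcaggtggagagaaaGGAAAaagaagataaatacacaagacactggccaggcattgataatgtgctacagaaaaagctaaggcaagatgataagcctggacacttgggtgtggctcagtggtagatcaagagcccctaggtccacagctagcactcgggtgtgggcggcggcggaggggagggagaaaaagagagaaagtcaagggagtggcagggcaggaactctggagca
Acp5 window 2: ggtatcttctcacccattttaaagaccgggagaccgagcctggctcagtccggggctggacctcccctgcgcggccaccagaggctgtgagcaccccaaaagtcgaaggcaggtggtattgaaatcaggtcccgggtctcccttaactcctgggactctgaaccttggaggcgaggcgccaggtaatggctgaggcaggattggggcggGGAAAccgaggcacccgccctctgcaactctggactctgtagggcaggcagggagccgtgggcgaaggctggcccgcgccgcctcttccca
Acp5 window 3: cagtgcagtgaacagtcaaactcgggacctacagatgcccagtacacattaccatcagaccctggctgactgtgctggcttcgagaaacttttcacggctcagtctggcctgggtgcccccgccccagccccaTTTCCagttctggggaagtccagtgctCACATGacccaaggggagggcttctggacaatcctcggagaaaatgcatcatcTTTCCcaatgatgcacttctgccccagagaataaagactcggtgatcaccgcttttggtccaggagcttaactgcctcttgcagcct
Ctsk: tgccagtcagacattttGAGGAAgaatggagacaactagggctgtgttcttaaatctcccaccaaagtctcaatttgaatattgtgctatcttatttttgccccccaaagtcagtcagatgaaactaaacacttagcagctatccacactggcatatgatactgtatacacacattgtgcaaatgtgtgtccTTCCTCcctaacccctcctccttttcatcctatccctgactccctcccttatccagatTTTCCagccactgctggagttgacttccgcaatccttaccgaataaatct
Oscar: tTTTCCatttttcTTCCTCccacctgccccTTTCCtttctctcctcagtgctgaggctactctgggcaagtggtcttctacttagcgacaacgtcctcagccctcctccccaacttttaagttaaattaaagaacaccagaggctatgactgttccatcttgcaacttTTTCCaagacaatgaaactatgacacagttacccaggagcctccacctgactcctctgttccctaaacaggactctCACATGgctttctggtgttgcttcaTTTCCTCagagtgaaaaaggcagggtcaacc

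The letters searched on both strands were GGAAA (the core bound by NFAT proteins), CATGTG and CACGTG (E-boxes bound by the MITF family), TGANTCA (AP-1), GAGGAA (PU.1) and GAAA, any 2 bases and GAAA again (IRF proteins), and a match to GAGGAA followed by A also holds GGAAA. The NFAT core was in 8 of 11 windows of the members and in 61.3% of all 32851 windows of the same length. CATGTG was in 2 of 11 windows, the third of Acp5 and that of Oscar, and in 14.2% of all windows. In the third Acp5 window that E-box began at position 161, between NFAT cores at positions 134 and 214, counted from 1 at the window's 5′ end. GAGGAA was in 2 windows, those of Ctsk and Oscar, and in 28.3% of all windows. The other 3 patterns were in 0 of the 11 windows and in 7.15% (CACGTG), 7.81% (TGANTCA) and 3.44% (the IRF pattern) of all windows. These matches describe letters only, and the table does not show which start of Acp5 its reads came from.

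Of 12 tested matrix-degrading enzymes and inhibitors, 5 had passed as higher and 5 as lower in Pim1 KO. The shares of all tested genes were 6.79% and 6.73%, and the median log2 fold change of the 12 was -0.04. The macrophage elastase gene Mmp12 was at 661.6 FPKM in Pim1 KO and 1547 FPKM in WT, and the membrane-bound Mmp14 was at 87.6 FPKM in Pim1 KO and 123.3 FPKM in WT. Timp1, an inhibitor of metalloproteases, was at 39.0 FPKM in Pim1 KO and 97.9 FPKM in WT. In the other direction, the gelatinase gene Mmp9, active in osteoclasts and in neutrophil granules, was at 21.0 FPKM in Pim1 KO and 10.4 FPKM in WT. Hpse, which encodes heparanase, was at 21.2 FPKM in Pim1 KO and 10.8 FPKM in WT, and the inhibitor Timp2 was at 28.5 FPKM in Pim1 KO and 15.9 FPKM in WT. Among 4 related cathepsins Ctsk was a minor one, with 0.444% of their summed FPKM in Pim1 KO and 0.431% in WT.

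Atp6v0d2 encodes the d2 subunit of the vacuolar proton pump, which osteoclasts use to acidify bone and which is also needed for fusion in mice. It was at 100.2 FPKM in Pim1 KO and 190.3 FPKM in WT, with log2 fold change -0.93 and error 0.23. Its widely expressed counterpart, Atp6v0d1, was at 213.2 FPKM in Pim1 KO and 221.1 FPKM in WT. The d2 form therefore held 32.0% of the summed FPKM of both d subunits in Pim1 KO and 46.2% in WT. The Atp6v0d2 row lies on chromosome 4 at 19803985 to 19849713 in the coordinates of the table.

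Of 23 tested genes of the proton pump and acid secretion, 3 had passed as higher and 1 as lower, beside 6.79% and 6.73% of all tested genes, with a median log2 fold change of 0.04. The pump subunit genes Atp6v0a1 (47.8 FPKM in Pim1 KO, 33.8 FPKM in WT) and Atp6v1g1 (443.9 FPKM in Pim1 KO, 333.1 FPKM in WT) had passed as higher. So had Plekhm1, a vesicle trafficking gene mutated in osteopetrosis, at 19.1 FPKM in Pim1 KO and 13.6 FPKM in WT. Carbonic anhydrase 2, Car2, which supplies protons to the pump, was at 1.81 FPKM in Pim1 KO and 3.11 FPKM in WT and had passed as lower. Tcirg1, the a3 subunit of the osteoclast pump, was at 113.7 FPKM in Pim1 KO and 115.0 FPKM in WT.

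**Figure D3:**
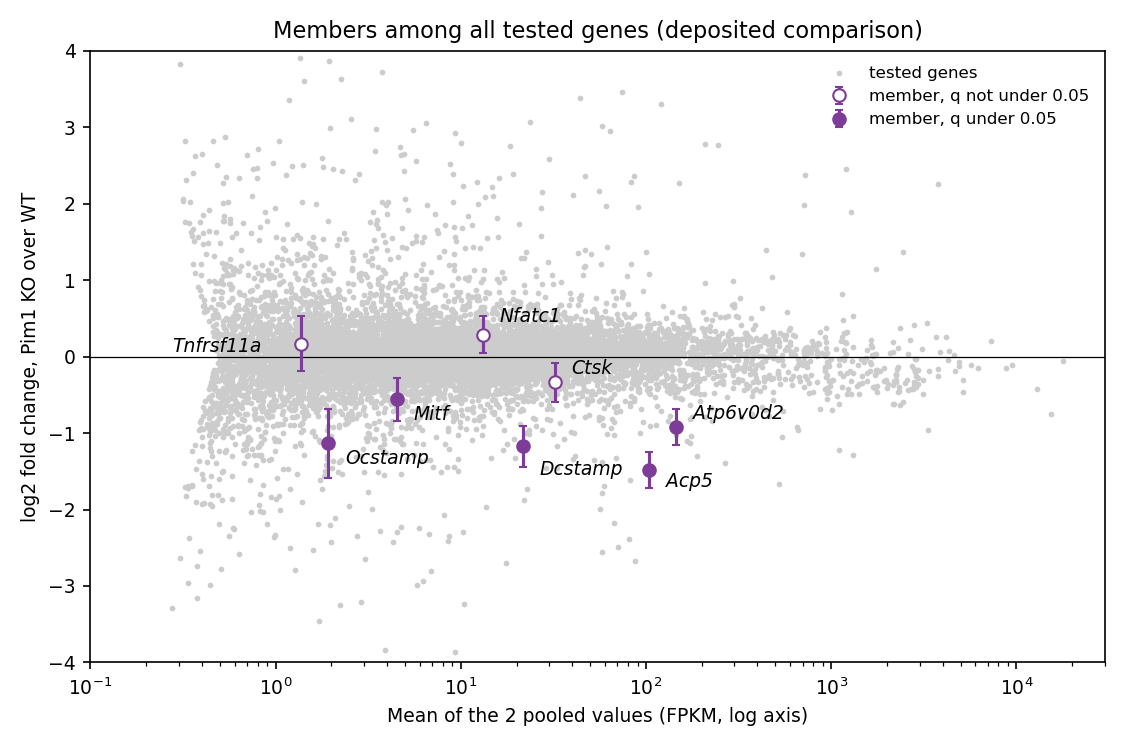
Log2 fold change (Pim1 KO over WT) against mean FPKM on a logarithmic axis for all tested genes in grey and the 8 tested members in purple, with bars of 1 error. Filled members had passed and lie between -0.56 (Mitf) and -1.48 (Acp5), open members lie between -0.34 (Ctsk) and 0.29 (Nfatc1), and 16 tested genes fall outside the axes.

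Of 15 tested attachment and sealing zone genes, 2 had passed as higher and 1 as lower, beside 6.79% and 6.73% of all tested genes. The median log2 fold change of the 15 was 0.01. The kinase gene Src, needed for the ruffled border, was at 6.41 FPKM in Pim1 KO and 10.2 FPKM in WT. Gsn, which encodes the actin-severing protein gelsolin, was at 244.1 FPKM in Pim1 KO and 163.0 FPKM in WT, and Vav3, a signalling gene of the actin cytoskeleton, was at 1.95 FPKM in Pim1 KO and 1.17 FPKM in WT. Of 12 tested further genes that osteoclasts express, 2 had passed each way (median 0.03). The sphingosine kinase gene Sphk1 was at 9.15 FPKM in Pim1 KO and 17.1 FPKM in WT, and Rab38, a small GTPase gene, was at 0.520 FPKM in Pim1 KO and 1.14 FPKM in WT. Brain-type creatine kinase, Ckb, was at 16.3 FPKM in Pim1 KO and 11.1 FPKM in WT, and Fam102a was at 1.72 FPKM in Pim1 KO and 1.04 FPKM in WT. Spp1, which encodes osteopontin, was marked as too deep to test, with 9022 FPKM listed in Pim1 KO and 0 in WT. That 0 is a failed estimate, so the genotypes are not compared for Spp1.

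Of 15 tested receptors and cytokines that act on osteoclast precursors, 4 had passed as lower and 1 as higher. The shares of all tested genes were 6.73% and 6.79%, and the median log2 fold change of the 15 was -0.25. Il1b was at 40.3 FPKM in Pim1 KO and 123.2 FPKM in WT (log2 fold change -1.61, error 0.25). Il6st, the signalling chain of the IL-6 receptor, was at 2.97 FPKM in Pim1 KO and 5.46 FPKM in WT. Csf2rb2 was at 117.9 FPKM in Pim1 KO and 169.4 FPKM in WT, and its close similarity to Csf2rb makes the value uncertain. Tnf was at 31.9 FPKM in Pim1 KO and 21.97 FPKM in WT. Csf1r, the receptor for M-CSF that precursors depend on, was at 269.7 FPKM in Pim1 KO and 319.9 FPKM in WT and had not passed.

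**Figure D4:**
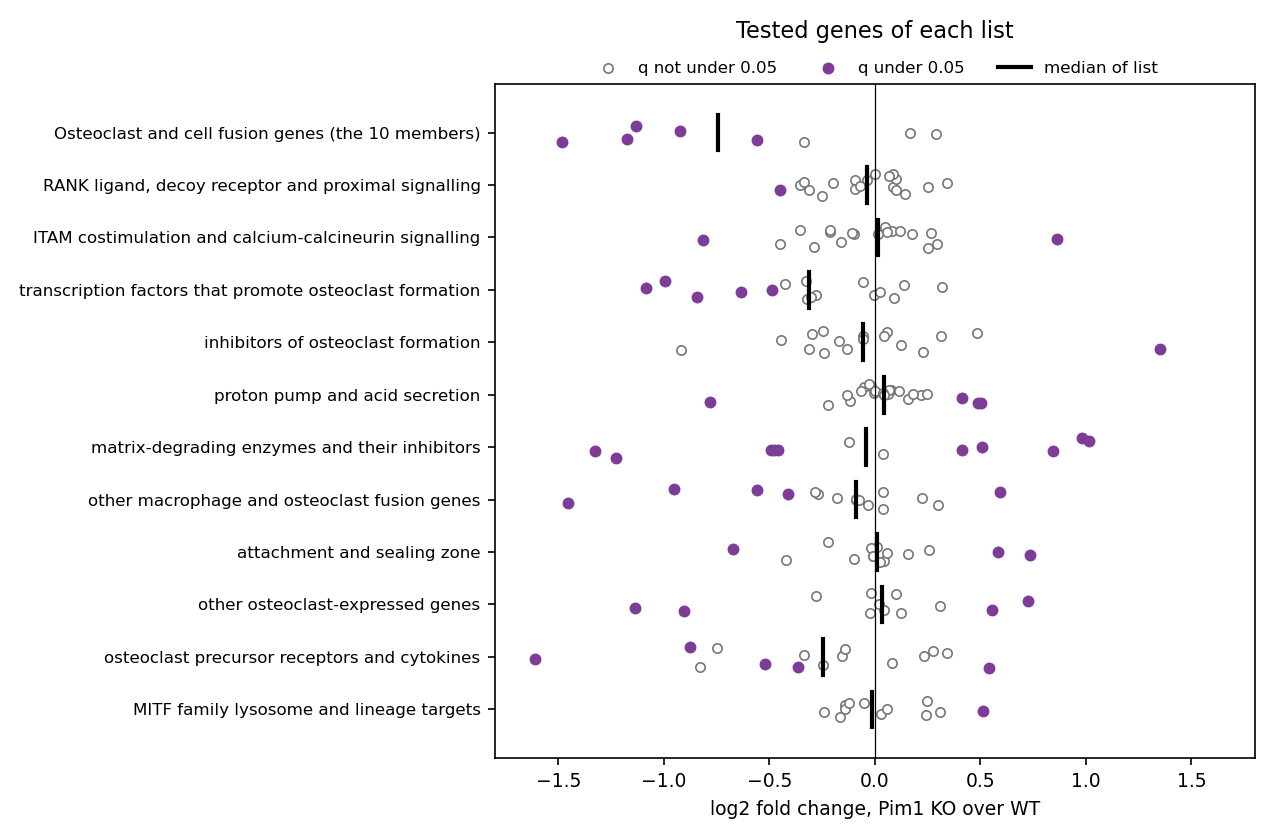
Log2 fold change (Pim1 KO over WT) of each tested gene in the member set and in 11 lists of related function, 1 list per row, with points spread vertically for legibility, filled where the gene had passed and with a black line at the list's median. The median of the members is -0.74, and those of the 11 lists lie between -0.31 for promoting transcription factors and 0.04 for proton pump genes.

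Over the 11 lists together, with each gene counted once and the members left out, 172 genes were tested. Of these, 24 had passed as lower (14%) and 17 as higher (9.88%), beside 6.73% and 6.79% of all tested genes. Their median log2 fold change was -0.02. With p taken from the test statistic of the authors' deposited table as a normal deviate, 11 of the 172 passed. These were 7 lower (Fos, Il1b, Mmp12, Pparg, Sphk1, Timp1 and Tspan13) and 4 higher (Hpse, Id1, Mmp9 and Timp2). Of all tested genes 366 (3.3%) passed in that reading, 162 as lower and 204 as higher. Under the same reading Acp5, Dcstamp and Atp6v0d2 still passed, whereas Ocstamp and Mitf did not.

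Markers of other cells moved in the same comparison, in which 6.73% of all tested genes had passed as lower and 6.79% as higher. Of 11 tested neutrophil markers 8 had passed, each as higher, and the list summed to 9401 FPKM in Pim1 KO and 2511 FPKM in WT. Most of both sums came from S100a8 (6257 FPKM in Pim1 KO, 1308 FPKM in WT) and S100a9 (2029 FPKM in Pim1 KO, 369.3 FPKM in WT). The 3 that had not passed were Mmp8 (767.9 FPKM in Pim1 KO, 735.1 FPKM in WT), Cxcr2 and Retnlg. Retnlg had the lower value in Pim1 KO. Of 6 monocyte markers 3 had passed, each as higher, with a sum of 1506 FPKM in Pim1 KO and 856.5 FPKM in WT. Most of the sum in Pim1 KO came from Ly6c2 (997.1 FPKM in Pim1 KO, 392.4 FPKM in WT). Csf1r, the second most abundant (269.7 FPKM in Pim1 KO, 319.9 FPKM in WT), had not passed. It and Cx3cr1 were the 2 markers with lower values in Pim1 KO. Of 8 tested macrophage markers 0 had passed by the authors' Cuffdiff-style test and 2 had an unadjusted p under 0.05, with a sum of 4616 FPKM in Pim1 KO and 4026 FPKM in WT. Cd68 was at 970.5 FPKM in Pim1 KO and 898.5 FPKM in WT. The 8 dendritic cell markers, of which 4 were tested with 1 passing each way, summed to 457.1 FPKM in Pim1 KO and 583.5 FPKM in WT. Their most abundant genes were H2-Ab1 (426.6 FPKM in Pim1 KO, 521.8 FPKM in WT), which had not passed, and Itgax. Itgax, which encodes CD11c, was at 24.0 FPKM in Pim1 KO and 59.0 FPKM in WT and had passed as lower. In the other direction, Ccr7 was at 5.35 FPKM in Pim1 KO and 1.61 FPKM in WT and had passed as higher. Of the 8 markers, 5 were under 1 FPKM in both genotypes. The part of these cell types in the lower values of the members was not tested, and in bulk RNA fewer cells of a type and less RNA per cell cannot be told apart.

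Apart from Pf4, markers of bone and stromal cells, lymphocytes and other lineages were low. Of 9 osteoblast and stromal markers 8 were under 1 FPKM in both genotypes. The exception, Runx2, was at 3.27 FPKM in Pim1 KO and 4.86 FPKM in WT and had passed as lower. All 6 T and NK cell markers and all 4 B cell markers were under 1 FPKM in both genotypes, with Nkg7, Cd3d, Cd79a and Ebf1 as the most abundant of them. The platelet factor gene Pf4 was at 4234 FPKM in Pim1 KO and 4360 FPKM in WT, whereas the megakaryocyte integrin gene Itga2b was at 0.0498 FPKM in Pim1 KO and 0.113 FPKM in WT. Of mast cell and basophil markers Kit was at 4.73 FPKM in Pim1 KO and 3.25 FPKM in WT and had passed as higher. Gata2 (0.185 FPKM in Pim1 KO, 0.700 FPKM in WT) had passed as lower, and Gata2 and the others were under 1 FPKM in both. Of eosinophil markers Siglecf was at 4.64 FPKM in Pim1 KO and 7.68 FPKM in WT and had passed as lower. Prg2 and the others were under 1 FPKM in both.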

How the data were processed

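RNA of Pim1 KO and WT cells was measured in 3 libraries per genotype, which the authors pooled before deposit. Expression values in the deposited table were taken as FPKM from the layout of the table (that of a Cuffdiff gene comparison), because the header names no unit. Per the file headers, the authors' table also gives a test statistic (used as a score) and a p-value and q-value per gene. Aligner, annotation and software versions were not given in the sources used here, and the submitters' processing notes name mm10. Only 12.8% of 23045 loci matched by symbol to RefSeq genes overlapped their gene in GRCm38.p6, so the build of the table's coordinates is not settled; they are printed with starts counted from 1.

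Adjusting the p-values over the 11079 tested rows (Benjamini-Hochberg) gave the deposited q-values within 5.28e-07. The smallest p-value, 5e-05, was shared by 667 genes, so the order among them is not resolved. The median error of a log2 fold change was 0.287, and the p-values correspond to normal deviates with a median of 1.74 times the test statistic, so errors printed here are wider than those behind the calls. No fit over libraries, replicate pairing or omission of libraries was possible. The calculation of adjusted p-values was tested on simulated data.

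Members and gene lists were chosen with earlier results of these data known. Named were all members, Pim1 and the 2 most abundant genes of each marker list. Named too were up to 3 passing genes each way of each list by smallest q (ties by larger fold change). Added after their values were seen were Cd44, Cd47, Sirpa, Spi1, Tcirg1, Atp6v0d1, Tfec, Tfe3, Tfeb, Junb, Jund, Itgb3 and Siglec15. So were Tnfsf11, Spp1, Eif2s3y, Xist, Csf2rb, Ccr7, Cx3cr1, Mmp8, Cxcr2 and Retnlg. Lilrb4, Arhgef8, Ly6g, Emr1, Hbb-b1 and Hba-a1 were not analysed here. Work used Python 3.11.15, pandas 2.3.3, numpy 2.4.6, scipy 1.17.1 and matplotlib 3.10.9.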

Additional observations from a re-analysis of the deposited data

How the results depend on the processing

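Of the members, 3 were called (Acp5, Dcstamp and Atp6v0d2) with p from a normal reading of the test statistic, beside 366 (3.3%) of all tested genes. The same 3 were called with only genes of a mean of at least 10 FPKM. Beside them 715 genes in all were called, 6.45% of the 11079 tested before that filter. In that setting Ocstamp and Mitf are no longer tested. With a mean of at least 1 FPKM the 5 calls were kept, beside 1340 genes called in all (12.1% of the 11079). With a q-value under 0.01 they were also kept, beside 973 genes (8.78%). The filters on the mean leave fewer genes tested, so the shares among the genes they keep are higher. The 41 calls in the related lists became 11 with the test statistic as a deviate, beside 3.3% of all tested genes. They became 27 at a q-value under 0.01, beside 8.78% of all tested genes. The median log2 fold change of the members was -0.30 at a pseudocount of 5, where the low members Ocstamp (-0.30) and Mitf (-0.26) shrink by construction. No sign of a member's fold change turned under pseudocounts of 0.1, 1 or 5, median centring or quantile normalization. Leaving out libraries was not run, since the values are pooled, and the unknown depth limits what the low members Ocstamp and Tnfrsf11a can show. No paired analysis was possible because the table holds 1 pooled column per genotype.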

Other observations

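The genes next to each tested member on its chromosome were read as a further description, added after the values were seen. Taking the nearest tested row on each side gave 16 neighbours of 8 members, at 1.97 to 904.0 kb. Of these, 2 had passed as lower, 2 as higher and 12 not, beside 13.5% of all tested genes passing either way. Neither neighbour of Acp5, Dcstamp or Ocstamp had passed. Acp5 lies between Elof1 (84.1 FPKM in Pim1 KO, 79.4 FPKM in WT), a transcription elongation factor gene, and Pigyl (52.8 FPKM in Pim1 KO, 45.9 FPKM in WT). Beside Atp6v0d2, the ubiquitin ligase gene Wwp1 had passed as higher (3.10 FPKM in Pim1 KO, 2.09 FPKM in WT). So had Frmd4b beside Mitf (5.06 FPKM in Pim1 KO, 3.73 FPKM in WT). Both neighbours of Ctsk had passed as lower although Ctsk had not: Arnt, partner of hypoxia-inducible factors, was at 5.48 FPKM in Pim1 KO and 7.80 FPKM in WT, and Ctss, which encodes cathepsin S, was at 4360 FPKM in Pim1 KO and 6000 FPKM in WT.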
